A study of Mus musculus with 18 samples.

Results

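The mitochondrial ribosomal proteins were taken as every probe set of the Affymetrix mouse 430A and 430B chips whose single gene symbol in the platform annotation begins with Mrpl or Mrps and a number. The rule uses names alone and no measured value. It found 160 probe set rows of the 45265 in both tables, 127 on chip 430A and 33 on chip 430B, for 76 of the 18193 genes named by a single symbol: 47 named for the large subunit (Mrpl) and 29 for the small subunit (Mrps). A further 4 probe sets carried a member symbol beside other symbols and were left out, and Mrpl30 and Mrpl53 had no probe set. Only rows in the brightest 60% of their chip by mean signal were tested, which 136 of the 160 rows were (89 large subunit, 47 small subunit); each of the 76 genes kept at least 1 row.

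RNA came from snap-frozen heart tissue of male mice, 9 samples on 18 arrays, in 3 groups of 3. Control hearts were taken before AAC, the operation that produced pressure overload, at a labelled age of 8 weeks. The 4wkpost hearts were taken 4 weeks after AAC at a labelled age of 12 weeks. The 3wkAkt/6wkpost hearts came from 6 weeks after AAC, after Akt had been turned on; the titles give 3 weeks of Akt and the descriptions 2 weeks, and the age label is again 12 weeks. All 9 samples, controls included, carried both transgenes, Tet-myrAkt1 (an activated form of the kinase Akt1) and αMHC-tTA, whose promoter is active in heart muscle cells. There was no group of the later age without AAC and none at 6 weeks without Akt. AAC therefore cannot be told apart from age in the first comparison, nor Akt from the longer time after AAC in the second. Nor can Akt be told apart from whatever was done to turn it on. The labels do not say whether each sample was a separate animal, so that p-values measure the spread between these samples, which may be technical; they are called hearts here. The description of 4wkpost replicate 3 carries the number of replicate 1. Since whole tissue was used, fewer cells of a type and less RNA per cell cannot be told apart.

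The mitochondrial ribosome makes the few respiratory chain proteins that mitochondrial DNA encodes. Its RNAs come from the mitochondrial genome, whereas all of its proteins are encoded in the nucleus, made in the cytosol and imported. The small subunit reads the messenger RNA in the decoding centre, and the large subunit joins the amino acids and is held at the inner membrane. In humans, inherited variants of several of these proteins, MRPL3, MRPL44 and MRPS22 among them, cause cardiomyopathy. By structures of the mammalian ribosome Mrps18a and Mrps30 lie in the large subunit in spite of their names, and Mrps36 is now regarded as part of the 2-oxoglutarate dehydrogenase complex; they are counted here under their names.

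RefSeq promoter windows, 250 bases before to 50 after the gene start in build GRCm38.p6, were given for 67 of the 76 genes; Mrpl4, Mrpl13, Mrpl15, Mrpl19, Mrpl38, Mrpl54, Mrps28, Mrps34 and Mrps35 had no entry. The windows below are those of Mrpl46 and of the 7 members whose calls against control hearts were kept with each heart left out, whether or not they hold a motif, and capitals mark matches, on either strand, to AAGATGGC (the core of the YY1 motif), CCGGAAG (the core bound by ETS factors such as GABPA) and the palindromic NRF1 motif. Mrps11 (chr7:78782881-78783180, plus strand) and Mrpl46 (chr7:78783040-78783339, minus strand) start 42 bases apart on opposite strands, so that 141 bases are common to both windows, read from opposite strands. Mrps12 (chr7:28741772-28742071, minus), Mrps22 (chr9:98601630-98601929, minus), Mrps23 (chr11:88204138-88204437, plus) and Mrps10 (chr17:47368947-47369246, plus) rose in 3wkAkt/6wkpost against control hearts, and Mrpl23 (chr7:142532782-142533081, plus) and Mrpl11 (chr19:4962056-4962355, plus, by 1 of its rows) fell.
Mrps11: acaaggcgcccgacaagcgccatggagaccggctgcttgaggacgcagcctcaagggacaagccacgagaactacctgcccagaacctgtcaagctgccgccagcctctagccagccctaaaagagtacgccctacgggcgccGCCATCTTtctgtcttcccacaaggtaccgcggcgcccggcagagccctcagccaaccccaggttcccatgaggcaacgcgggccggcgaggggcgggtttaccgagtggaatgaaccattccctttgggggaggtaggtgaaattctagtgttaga
Mrpl46: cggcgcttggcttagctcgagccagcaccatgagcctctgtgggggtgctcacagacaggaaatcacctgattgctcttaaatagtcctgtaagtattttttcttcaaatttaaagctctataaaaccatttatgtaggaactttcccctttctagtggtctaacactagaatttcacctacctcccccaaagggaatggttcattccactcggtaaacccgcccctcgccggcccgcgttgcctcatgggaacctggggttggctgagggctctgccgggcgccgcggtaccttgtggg
Mrps12: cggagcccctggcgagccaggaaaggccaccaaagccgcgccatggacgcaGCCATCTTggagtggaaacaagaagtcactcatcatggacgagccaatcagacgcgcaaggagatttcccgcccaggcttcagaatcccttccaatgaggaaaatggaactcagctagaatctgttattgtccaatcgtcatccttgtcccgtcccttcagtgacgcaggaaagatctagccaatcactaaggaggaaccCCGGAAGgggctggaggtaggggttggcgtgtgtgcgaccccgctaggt
Mrps22: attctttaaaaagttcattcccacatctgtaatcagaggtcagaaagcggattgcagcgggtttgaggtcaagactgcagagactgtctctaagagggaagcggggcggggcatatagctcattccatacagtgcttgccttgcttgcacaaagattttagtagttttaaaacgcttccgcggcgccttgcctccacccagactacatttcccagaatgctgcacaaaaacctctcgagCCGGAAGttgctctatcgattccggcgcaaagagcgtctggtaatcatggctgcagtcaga
Mrps23: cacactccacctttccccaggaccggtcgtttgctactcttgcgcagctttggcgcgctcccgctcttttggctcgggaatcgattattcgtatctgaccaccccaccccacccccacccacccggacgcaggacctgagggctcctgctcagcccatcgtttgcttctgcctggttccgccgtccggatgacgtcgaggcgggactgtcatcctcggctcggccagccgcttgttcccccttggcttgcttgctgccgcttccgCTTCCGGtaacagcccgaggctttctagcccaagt
Mrps10: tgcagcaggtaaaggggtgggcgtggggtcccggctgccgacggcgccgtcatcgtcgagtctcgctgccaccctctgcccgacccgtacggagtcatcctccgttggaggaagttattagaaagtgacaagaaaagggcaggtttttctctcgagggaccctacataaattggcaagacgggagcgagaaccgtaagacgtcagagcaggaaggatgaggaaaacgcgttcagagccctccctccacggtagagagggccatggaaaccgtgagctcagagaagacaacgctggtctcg
Mrpl23: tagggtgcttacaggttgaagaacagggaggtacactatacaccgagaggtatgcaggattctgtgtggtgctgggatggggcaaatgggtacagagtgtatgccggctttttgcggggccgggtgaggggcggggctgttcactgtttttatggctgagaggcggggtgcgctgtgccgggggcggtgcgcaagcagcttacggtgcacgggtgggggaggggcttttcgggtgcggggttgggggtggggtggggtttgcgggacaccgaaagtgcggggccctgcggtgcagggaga
Mrpl11: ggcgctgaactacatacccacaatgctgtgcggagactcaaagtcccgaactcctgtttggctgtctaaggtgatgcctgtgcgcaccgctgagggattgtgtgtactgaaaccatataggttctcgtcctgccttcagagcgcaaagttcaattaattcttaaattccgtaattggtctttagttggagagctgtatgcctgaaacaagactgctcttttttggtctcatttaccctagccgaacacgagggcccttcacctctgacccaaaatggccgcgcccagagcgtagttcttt

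The YY1 core stood in the windows of 12 of the 67 member genes (17.9%), against 3.57% of the 17492 protein-coding genes with an entry. The ETS core stood in 25 (37.3%, against 12.9%) and the NRF1 motif in 3 (4.48%, against 1.47%). Shares for CCAAT were 38.8% of members and 42.3% of all, for the SP1 box GGGCGG 50.7% and 49.2%, and for the E-box CACGTG 7.46% and 8.91%. The ERR element TCAAGGTCA stood in no member window and in 0.377% of all. Mrps12 held both a YY1 core and an ETS core, Mrps11 a YY1 core, Mrps22 and Mrps23 an ETS core, and Mrps10, Mrpl46, Mrpl23 and Mrpl11 none of the first 3 motifs. A match of letters is a description of the window and not a measured binding site.

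Signals are the MAS5 values as the authors deposited them, on a linear scale. A small rescaling of each array was made only for the differences and the signal filter. Differences are given as log2(signal + 32), which understates the change of dim probe sets, and were tested with limma over all 21850 probe sets with a single gene symbol that passed the signal filter. Rose, fell and changed are used only of a row with a Benjamini-Hochberg adjusted p under 0.05. Signals of different probe sets are not comparable with each other. Within a chip, hearts of the same group correlated at r of 0.947 to 0.9743 on 430A and 0.8952 to 0.9488 on 430B. The median SD of a probe set within groups was 0.21 over the tested members and 0.23 over all tested probe sets (log2). In all, 26 member rows of 25 genes were called in at least 1 of the 3 comparisons, 15 large and 10 small subunit genes. No such count was made over all tested probe sets. The number of members called at least once, or never, therefore shows nothing particular to the members.

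The first comparison asks which of these genes differed 4 weeks after AAC. Few did: 7 member rows rose and 1 fell of the 136 tested, which is 5.882% of them, and the share over all tested probe sets was 5.59% (3.59% higher and 2% lower). The chips differed in this share: on 430A 6.422% of member rows were called, against 8.245% of all tested there. On 430B it was 3.704% against 2.052%. The small subunit had 4 risen and none fallen of 47 rows, and before adjustment 5 higher and 3 lower rows had limma p under 0.05. The large subunit had 3 risen and 1 fallen of 89. The median log2 difference was 0.07 over the members, 0.11 for the small and 0.05 for the large subunit, beside -0.02 over all tested probe sets. With Mrps18a and Mrps30 counted as large and Mrps36 left out, the small subunit had 3 risen and 0 fallen of 44 rows. The large subunit then had 4 risen and 1 fallen of 91. Before adjustment 20 member rows were higher and 10 lower at limma p under 0.05, where 22.9% of all tested probe sets passed (11.9% higher and 11% lower). The 3 hearts of each group did not overlap in 26 member rows that were higher and 13 that were lower, where the shares over all tested probe sets were 14.8% and 15.6%.

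Of the small subunit proteins, Mrps23 (probe set 1421874_a_at) had signals of 1139, 1078 and 1239.8 in 4wkpost hearts, against 486, 548 and 442 in control hearts. Every 4wkpost heart lay well above every control heart, and the row rose by 1.18 on the log2 scale (SE 0.16, limma adjusted p = 0.00536). The same gene's row 1421875_a_at read 2488, 2632 and 2538 in 4wkpost hearts, against 2378, 1664 and 2383 in control hearts, a difference of 0.27 that was not called, and its row on 430B differed by -0.06. Mrps10, counterpart of a bacterial protein in the head of the small subunit, had 995, 1409 and 847 in 4wkpost hearts, against 462, 558 and 544 in control hearts. All 4wkpost hearts were above all control hearts, and Mrps10 rose by 0.98 (SE 0.18, limma adjusted p = 0.0144).

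Mrps18a had signals of 4093, 4628 and 3528 in 4wkpost hearts, against 2576, 2012 and 2254 in control hearts. The groups stood apart, and the row rose by 0.83 (SE 0.15, limma adjusted p = 0.0158). Mrps33 was the least firm of the 4, with 1794, 2006 and 2120.5 in 4wkpost hearts, against 1085, 1409 and 1556 in control hearts. Its hearts did not overlap either, and it rose by 0.55 (limma adjusted p = 0.0459).

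In the large subunit the row 1422463_a_at of Mrpl3, a core protein next to the centre where peptide bonds form, had 730.1, 589.8 and 670.3 in 4wkpost hearts, against 405, 323 and 359 in control hearts. It rose by 0.82 (SE 0.17, limma adjusted p = 0.0217) with no overlap of hearts, while the gene's other tested rows, 1422464_at and 1440636_at, differed by 0.01 and -0.00. Mrpl18 had 1190.5, 1426 and 1646 in 4wkpost hearts, against 923, 754 and 970.3 in control hearts, a rise of 0.66 (limma adjusted p = 0.0316). Mrpl40, whose human gene lies in the region deleted in 22q11 syndrome, had 680.4, 732 and 785 in 4wkpost hearts, against 458, 492 and 447 in control hearts, a rise of 0.62 (limma adjusted p = 0.0369). In both genes the lowest 4wkpost heart was above the highest control heart.

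Mrpl20 was the member that fell. Its signals were 974, 833 and 1046 in 4wkpost hearts, against 3132, 1824 and 1839 in control hearts. Every 4wkpost heart was below every control heart, control replicate 1 stood far above the other controls, and the row fell by 1.18 on the log2 scale (SE 0.20, limma adjusted p = 0.0118).

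Uncalled rows with hearts that did not overlap included Mrpl9, at 0.89 and 0.68 higher for 1430976_a_at and 1427297_at, with its row on 430B at 0.34. On the lower side they included Mrps9 1439210_at at -0.85, Mrpl11 1437839_x_at at -0.56 and 1437131_x_at at -0.39, Mrps35 at -0.44, Mrpl34 at -0.40, Mrpl46 at -0.39 and Mrpl44 1452144_a_at at -0.33. The other rows of these genes did not all point down. Those of Mrps9 differed by 0.05, -0.02 and 0.35, those of Mrpl44 by 0.33, 0.46 and -0.19, and Mrpl11 1417918_at was at 0.28 with hearts apart. The mean of the 430A rows differed by -0.06 for Mrpl44, by -0.22 for Mrpl11 and by -0.12 for Mrps9, none of them called. Of genes fixed by name, Mrpl12 was at 0.01, Mrps12 at 0.24, Mrps16 at -0.21, Mrps22 at 0.40, Mrps34 at -0.23, Mrps36 at -0.04 and Mrpl41 at -0.29 and 0.11, none called.

 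The calls of this comparison rest on few hearts: without 4wkpost replicate 2 the count of 8 called rows was 1, without control replicate 3 it was 2, without control replicate 2 it was 3, and without control replicate 1 or 4wkpost replicate 1 it was 5. The row that kept its call under each heart left out was Mrps23 1421874_a_at. Mrpl20 lost its call only without 4wkpost replicate 2, and Mrps10 without control replicate 3 or 4wkpost replicate 2. Among the other settings that could be run on a row, the call of Mrpl40 was kept in 9 of 15, that of Mrps33 in 6 of 15, that of Mrpl18 in 14 of 15 and that of Mrpl3 in 13 of 14, and those of the other 4 rows in all. An atrial marker score as a covariate was among the settings that ended the calls of Mrpl40 and Mrps33. The mean of the 430A rows of a gene was not counted among these settings. With it Mrpl3 differed by 0.42 (limma adjusted p = 0.149) and was not called.

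The quality of the RNA moved with the comparison. The ratio of 3′ to 5′ signal of the beta-actin control probes, which grows as RNA is degraded or less fully copied, was 1.137 to 1.212 in 4wkpost hearts, against 1.487 to 2.04 in control hearts, and that of Gapdh was 0.8283 to 0.888 against 1.072 to 1.316 (exact permutation p = 0.1 for each, the smallest that 3 against 3 hearts can give, two-sided). The summed signal of the cardiomyocyte markers was 191100 to 207100 in 4wkpost hearts, against 235700 to 263600 in control hearts, with 1 row called higher and 3 lower of 17. That of the endothelial markers was 13080 to 14550 against 18080 to 18230, with 1 of 12 rows called lower. Skeletal muscle markers summed to 46710 to 49510 in 4wkpost hearts, against 32850 to 42860 in control hearts, with 2 of 5 rows called higher. Brown adipocyte markers summed to 15830 to 19690 against 25160 to 27050 (1 of 5 rows called lower, median log2 difference -0.19). Smooth muscle and pericyte markers summed to 17160 to 21370 against 22960 to 24040. A sum of linear signals follows the brightest rows of a list. Of the genes listed for brown adipocytes (Ucp1, Cidea, Elovl3, Cox8b and Dio2) 3 of 5 were tested. For skeletal muscle (Acta1, Myl1, Tnnt3, Tnni2, Ckm, Atp2a1 and Mylpf) 4 of 7 were. Signal of these genes in whole tissue does not show that such cells were present. Whether heart muscle cells gave it was not tested. The atrial markers spread widely within each group, at 4912, 91730 and 49870 in control hearts, 69580, 5700 and 8994 in 4wkpost hearts, and 69110, 6343 and 15080 in 3wkAkt/6wkpost hearts. Apart from the covariate for atrial markers, the part of these values in the member differences was not tested.

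**Figure D1:**
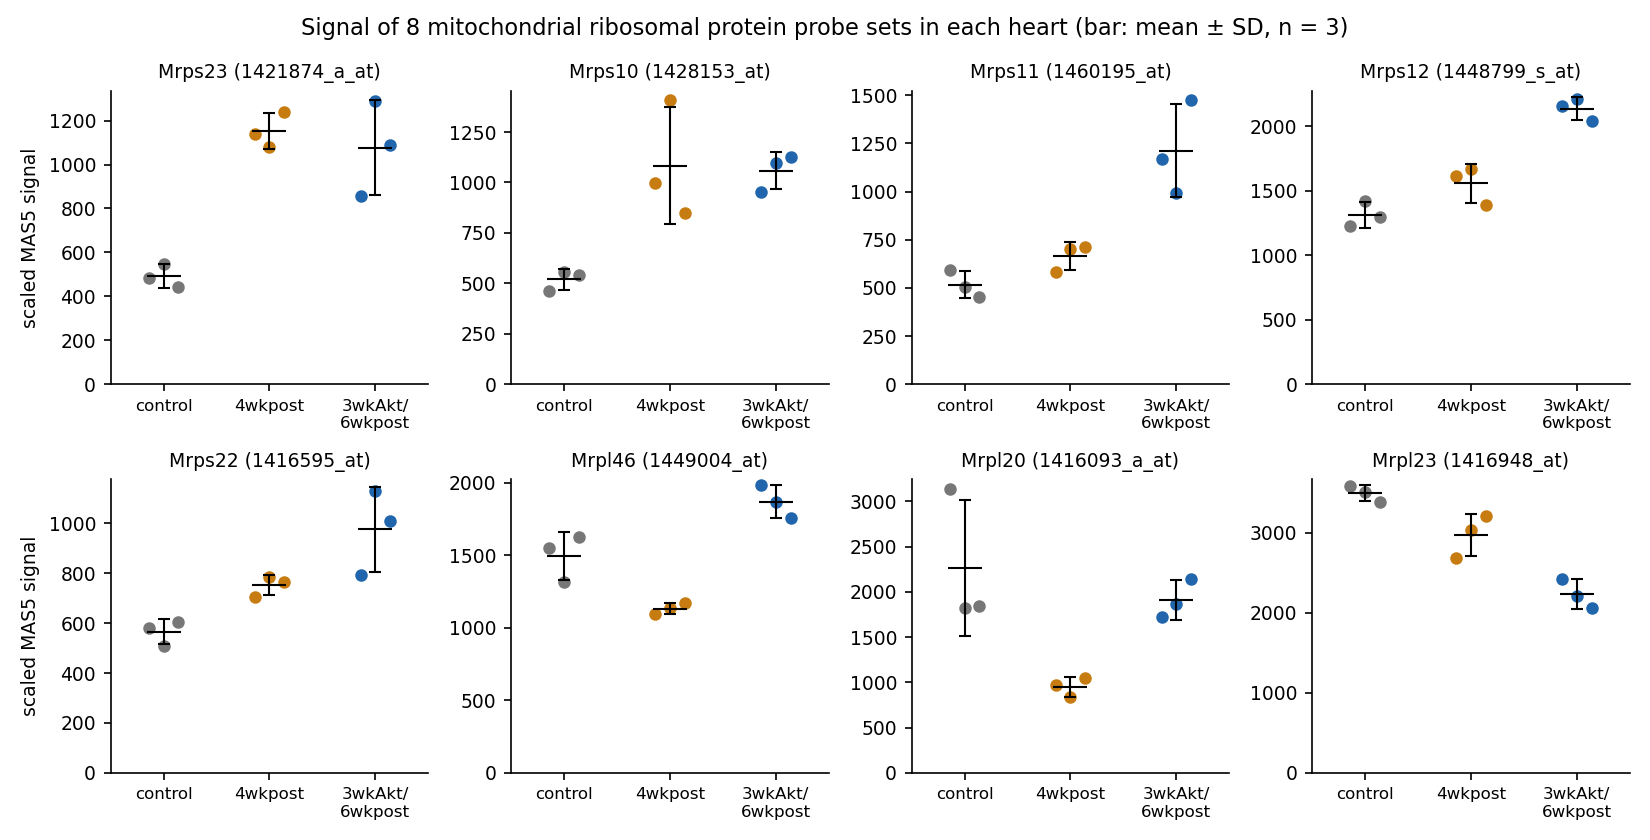
Scaled MAS5 signal (y axis, linear, from 0) of 8 member probe sets in each of the 9 hearts, by group on the x axis; dots are hearts, bars the mean ± SD (n = 3). Mrps23 and Mrps10 were higher in both later groups than in control hearts, Mrps11 and Mrps12 highest in 3wkAkt/6wkpost hearts, Mrpl46 and Mrpl20 lowest in 4wkpost hearts, and Mrpl23 lowest in 3wkAkt/6wkpost hearts.

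The second comparison, of 3wkAkt/6wkpost with 4wkpost hearts, shares the 4wkpost hearts with the first. It called 3 member rows, all risen: Mrpl46, Mrpl20 and Mrps11. That is 2.206% of the 136 rows, beside 3.3% of all tested probe sets (1.41% higher and 1.89% lower). By chip it was 2.752% of member rows against 4.362% of all tested on 430A, and 0% against 1.881% on 430B. None fell; at p under 0.05 before adjustment limma gave 11 rows higher and 9 lower, where 18.5% of all tested probe sets passed (9.31% higher and 9.16% lower). With each array scaled to its median, which shifts all of its probe sets the same way, 3 rows rose and 4 fell. The median log2 difference was -0.01 over the members, with -0.01 for the large and -0.02 for the small subunit, beside 0.03 over all tested probe sets. Hearts did not overlap in 15 higher and 14 lower member rows, with 11.5% and 10.5% of all tested probe sets.

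Mrpl46, a protein of the large subunit, had signals of 1981, 1869 and 1759 in 3wkAkt/6wkpost hearts, against 1092, 1134 and 1171 in 4wkpost hearts. The groups were far apart, and the row rose by 0.71 (SE 0.12, limma adjusted p = 0.0115). Mrps11, counterpart of a bacterial protein on the platform of the small subunit, had 1169.5, 994 and 1473 in 3wkAkt/6wkpost hearts, against 583, 701 and 712 in 4wkpost hearts. Again no hearts overlapped, and it rose by 0.82 (SE 0.17, limma adjusted p = 0.0229). These are the neighbours whose promoter windows are printed above.

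Mrpl20 had 1717, 1866 and 2144 in 3wkAkt/6wkpost hearts, against 974, 833 and 1046 in 4wkpost hearts, and rose by 0.98 (SE 0.20, limma adjusted p = 0.0216). All 3 of its 3wkAkt/6wkpost hearts were above all 4wkpost hearts, and against control hearts it differed by -0.20 and was not called. Mrpl46 likewise lay at -0.39 in 4wkpost hearts against control and at 0.32 in 3wkAkt/6wkpost hearts against control, neither called. Because the low 4wkpost values enter both the first and the second comparison, the 2 differences of such a gene are not independent.

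The rows nearest the threshold on the lower side, none of them called, were Mrpl55 at -0.85 (limma adjusted p = 0.0571), Mrps18a at -0.58 (limma adjusted p = 0.0626) and Mrpl11 1437131_x_at at -0.58 (limma adjusted p = 0.0589). Mrpl55 had 952, 1605 and 1029.5 in 3wkAkt/6wkpost hearts, against 2029, 1824 and 2601 in 4wkpost hearts, with no overlap. Of Mrpl11, however, 1437839_x_at stood at 0.70 (limma adjusted p = 0.0935) and 1417918_at at -0.16, and the mean of its rows differed by -0.01. The largest of the other lower rows with hearts apart were Mrpl47 1429054_at at -0.47, Mrps21 1422451_at at -0.42, Mrpl1 1450948_a_at at -0.41, Mrpl23 at -0.41 and Mrps24 1450865_s_at at -0.39. The largest higher ones were Mrps9 1439210_at at 0.51, Mrps12 at 0.45, Mrpl17 1458027_at at 0.44, Mrps5 1447628_x_at at 0.43 and Mrps7 at 0.42. The other rows of Mrpl17 were at -0.04 and -0.35, those of Mrps5 at -0.21, -0.03, 0.42 and 0.18, that of Mrps21 at 0.19 and that of Mrpl1 at 0.26. Those of Mrps9 were at 0.16, -0.12 and -0.22, that of Mrpl47 at 0.10 and that of Mrps24 at -0.32. Of genes fixed by name, Mrpl12 was at -0.05, Mrps16 at -0.07, Mrps22 at 0.35, Mrps34 at -0.11, Mrps36 at -0.34 and Mrpl41 at 0.26 and -0.05, none called. The rows of Mrpl3 were at -0.27, -0.25 and -0.39 and those of Mrpl44 at 0.18, -0.13, 0.11 and -0.01.

 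Without 4wkpost replicate 2 or 4wkpost replicate 3 the count of 3 called rows was 1, and Mrpl46 kept its call under each heart left out. Mrpl20 lost its call without 4wkpost replicate 2 or 3 or 3wkAkt/6wkpost replicate 2 or 3, and Mrps11 without any of the 4wkpost hearts or 3wkAkt/6wkpost replicate 3. Mrps11 kept its call in 13 of 15 other settings, and Mrpl46 and Mrpl20 in all 15.

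The 3′ to 5′ ratios of beta-actin (1.041 to 1.22 in 3wkAkt/6wkpost hearts, against 1.137 to 1.212 in 4wkpost hearts) and of Gapdh (0.8087 to 0.9298 against 0.8283 to 0.888) overlapped between these groups, with exact permutation p = 0.4 and p = 1. The fibroblast markers summed to 43970 to 70210 in 3wkAkt/6wkpost hearts, against 27330 to 43740 in 4wkpost hearts, and 7 of 16 rows rose. The endothelial markers summed to 11230 to 11930 against 13080 to 14550, with 1 of 12 rows called lower. Brown adipocyte and smooth muscle and pericyte markers had 1 row each called higher. The part of these markers in the differences of Mrpl46, Mrps11 and Mrpl20 was not tested.

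The last comparison, of 3wkAkt/6wkpost with control hearts, shares its groups with the other 2. AAC, the labelled age, Akt and the time after AAC all differ in it, so that they cannot be told apart. Here 18 member rows rose and 4 fell, 16.18% of the 136, where 15% of all tested probe sets were called (8.25% higher and 6.77% lower). By chip it was 16.51% of member rows against 19.32% of all tested on 430A, and 14.81% against 9.287% on 430B. The small subunit had 8 risen and 1 fallen of 47 rows, the large subunit 10 risen and 3 fallen of 89. The median log2 difference was 0.08 over the members, 0.02 for the small and 0.08 for the large subunit, beside 0.01 over all tested probe sets, and without 3wkAkt/6wkpost replicate 1 the median over the members was 0.15. Before adjustment 26 member rows were higher and 14 lower at limma p under 0.05, where 29.6% of all tested probe sets passed (15.6% higher and 14% lower). Hearts did not overlap in 32 higher and 16 lower member rows, with 17.6% and 15.8% of all tested probe sets.

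The largest rise was that of Mrps11, with 1169.5, 994 and 1473 in 3wkAkt/6wkpost hearts, against 591, 503 and 455 in control hearts. It was 1.17 on the log2 scale (SE 0.17, limma adjusted p = 0.00164), and in 4wkpost hearts it was 0.35 against control and not called. Mrps23 1421874_a_at had 855, 1289 and 1087 in 3wkAkt/6wkpost hearts, against 486, 548 and 442 in control hearts. Its hearts did not overlap, and it rose by 1.07 (SE 0.16, limma adjusted p = 0.00201); its other rows both differed by 0.25 and were not called. Mrps10 had 953, 1094 and 1128 in 3wkAkt/6wkpost hearts, against 462, 558 and 544 in control hearts, and rose by 0.98 (SE 0.18, limma adjusted p = 0.00452).

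Mrps12, a protein of the decoding centre, had 2157, 2211 and 2038 in 3wkAkt/6wkpost hearts, against 1224, 1422 and 1292 in control hearts. These groups stood apart, the 4wkpost hearts, at 1617, 1669.8 and 1385, overlapped with control, and the rise over control was 0.69 (SE 0.12, limma adjusted p = 0.00452). Mrps22 had 793, 1128 and 1008 in 3wkAkt/6wkpost hearts, against 581, 509.6 and 605 in control hearts. All 3wkAkt/6wkpost hearts were above all controls, and it rose by 0.74 (SE 0.15, limma adjusted p = 0.0077).

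Of the other small subunit rows, Mrps33 had 2039.5, 2049.8 and 2097 in 3wkAkt/6wkpost hearts, against 1085, 1409 and 1556 in control hearts, and rose by 0.62 (limma adjusted p = 0.0147). Mrps7, which binds ribosomal RNA in the head of the small subunit, had 1333, 1304 and 1545 in 3wkAkt/6wkpost hearts, against 941, 864 and 1062 in control hearts, and rose by 0.53 (limma adjusted p = 0.0268). Mrps2 1420845_at had 314, 382 and 405 in 3wkAkt/6wkpost hearts, against 268, 223 and 194 in control hearts, and rose by 0.62 (limma adjusted p = 0.0273), while its brighter row 1420846_at differed by 0.29. In each of these 3 rows the groups stood apart. Mrps24 1450865_s_at, at the entry of the messenger RNA channel, was the small subunit row that fell, with 1172, 1360.0 and 1471 in 3wkAkt/6wkpost hearts, against 2051, 1648 and 1913 in control hearts, a fall by 0.48 (limma adjusted p = 0.0474); its row 1438563_s_at differed by -0.12.

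In the large subunit Mrpl10, which anchors the stalk where translation factors dock, had 1756, 2148 and 2410.4 in 3wkAkt/6wkpost hearts, against 1479, 1190.2 and 1153.5 in control hearts. Every 3wkAkt/6wkpost heart was higher, and it rose by 0.71 (SE 0.15, limma adjusted p = 0.0111). Mrpl11, which sits at the base of the same stalk, fell on its row 1437131_x_at, with 732, 772 and 651 in 3wkAkt/6wkpost hearts, against 1709, 1201 and 1424 in control hearts. The groups were far apart, with a log2 difference of -0.97 (SE 0.15, limma adjusted p = 0.00225). The gene's other rows 1417918_at and 1437839_x_at differed by 0.12 and 0.14, and the mean of its rows differed by -0.23 with limma adjusted p = 0.28. The stalk protein Mrpl12, which also binds the mitochondrial RNA polymerase, had 2873, 3015 and 2710.2 in 3wkAkt/6wkpost hearts, against 2793, 3024 and 3009 in control hearts, a difference of -0.04 with overlapping hearts.

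Mrpl23, near the exit of the peptide tunnel, had 2426, 2208 and 2059 in 3wkAkt/6wkpost hearts, against 3584, 3514 and 3387 in control hearts. The 4wkpost hearts were between, at 2679, 3030.4 and 3206, and the log2 difference from control was -0.64 (SE 0.12, limma adjusted p = 0.00498). Mrpl47 1429054_at, also of the exit region, had 565, 494 and 512 in 3wkAkt/6wkpost hearts, against 922, 750.5 and 910.4 in control hearts, and fell by 0.68 (limma adjusted p = 0.0158). Its 430B row 1453927_at differed by 0.16.

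Of the other large subunit rows that rose, Mrpl40 had 584, 832 and 785 in 3wkAkt/6wkpost hearts, against 458, 492 and 447 in control hearts, a rise of 0.61 (limma adjusted p = 0.0193). Mrpl44, a protein with an RNase III-like fold, rose by 0.52 on 1426651_at (limma adjusted p = 0.0367), with 754, 708 and 882 in 3wkAkt/6wkpost hearts, against 638, 492 and 486 in control hearts. Its other rows stood at -0.34 for 1452144_a_at, -0.07 for 1437391_x_at and 0.33 for 1430990_s_at, so that rows of this gene pointed both ways, and the mean of its 430A rows differed by 0.03 (limma adjusted p = 0.887). Mrpl45, which binds the ribosome to the inner membrane, had 1229, 1344 and 1501 in 3wkAkt/6wkpost hearts, against 1057, 888 and 996 in control hearts, and rose by 0.46 (limma adjusted p = 0.038).

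Mrpl9 rose on both 1437749_s_at, by 0.61, and 1430976_a_at, by 0.86, and its row 1427297_at was at 0.56 and not called. On 1430976_a_at the 426 of 3wkAkt/6wkpost replicate 1 lay within the control range of 324 to 475, while the other 2 hearts were at 899 and 960.5. Mrpl49 1423219_a_at rose by 0.55 and Mrpl3 1422463_a_at by 0.55. The other row of Mrpl49 was at 0.25 and those of Mrpl3 at -0.24 and -0.39, none called. The mean of the 430A rows differed by 0.15 for Mrpl3 (limma adjusted p = 0.583) and by 0.40 for Mrpl49 (limma adjusted p = 0.0629). Mrpl27 and Mrpl43 rose on chip 430B, by 0.55 and 0.46, through probe sets that are printed on both chips. On chip 430A the same probe sets differed by 0.08 (limma adjusted p = 0.684) and 0.32 (limma adjusted p = 0.18), so that the call depended on the chip. The Mrpl27 probe set 1415690_at read 2265, 2737 and 2671 on 430A and 2799.9, 4612 and 3414 on 430B in 3wkAkt/6wkpost hearts, against 2301, 2433 and 2480.0 on 430A and 2329, 2358 and 2547 on 430B in control hearts.

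The uncalled rows with hearts apart that ranked among the 8 largest differences in a direction were Mrpl32 at 0.80 on the higher side and, on the lower side, Mrpl15 1439988_at at -0.75 (limma adjusted p = 0.0504), Mrpl17 1450867_at at -0.54, Mrps21 1459677_at at -0.48 and Mrpl51 1416877_a_at at -0.36. The other rows of Mrpl15 were at -0.17, -0.91, 0.28 and -0.27, those of Mrpl17 at 0.29 and 0.19, that of Mrps21 at -0.29 and that of Mrpl51 at -0.34. Without control replicate 3 the count of 22 called rows was 9, without 3wkAkt/6wkpost replicate 3 it was 10, without control replicate 2 it was 11, without 3wkAkt/6wkpost replicate 2 it was 12, and without control replicate 1 it was 13. Rows that kept their calls under each heart left out were those of Mrps10, Mrps11, Mrps12, Mrps22, Mrps23, Mrpl11 and Mrpl23. Mrpl10 lost its call only without control replicate 3 and Mrps33 only without control replicate 1. Among the other settings that could be run on a row, the calls kept in fewest were those of Mrpl27 in 6 of 14, Mrpl3 in 7 of 14, Mrpl43 and Mrpl9 1430976_a_at in 8 of 14, and Mrpl49 and Mrps24 in 9 of 15. Mrpl44 kept its call in 11 of 14, Mrpl45 in 11 of 15, Mrps2 in 12 of 14 and Mrps7 in 14 of 15, and the other called rows in all. The mean of the 430A rows of a gene was not counted among these settings. With it Mrpl3, Mrpl11, Mrpl27, Mrpl43, Mrpl44, Mrpl49 and Mrps24 were not called. Nor was Mrpl9, at 0.71 (limma adjusted p = 0.0502). The atrial marker score as a covariate ended the calls of Mrpl27 and Mrpl3.

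The RNA ratios again differed from control in both probes (1.041 to 1.22 in 3wkAkt/6wkpost hearts, against 1.487 to 2.04 in control hearts for beta-actin), as did the summed cardiomyocyte markers (193200 to 219400 against 235700 to 263600) and endothelial markers (11230 to 11930 against 18080 to 18230). Of these markers 2 cardiomyocyte rows were called higher and 6 lower of 17, and 7 endothelial rows lower of 12. Fibroblast markers summed to 43970 to 70210 against 36330 to 41350, with 6 of 16 rows called higher. Skeletal muscle markers summed to 50450 to 72300 in 3wkAkt/6wkpost hearts, against 32850 to 42860 in control hearts, with 2 of 5 rows called higher. Brown adipocyte markers summed to 15750 to 18350 against 25160 to 27050, although 2 of 5 rows were called higher and 1 lower. The median log2 difference of these rows was 0.42, so that the sum and most rows did not move alike. Smooth muscle and pericyte markers summed to 15110 to 16990 against 22960 to 24040, with 2 of 10 rows called lower. The part of these markers in the member differences was not tested.

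**Figure D2:**
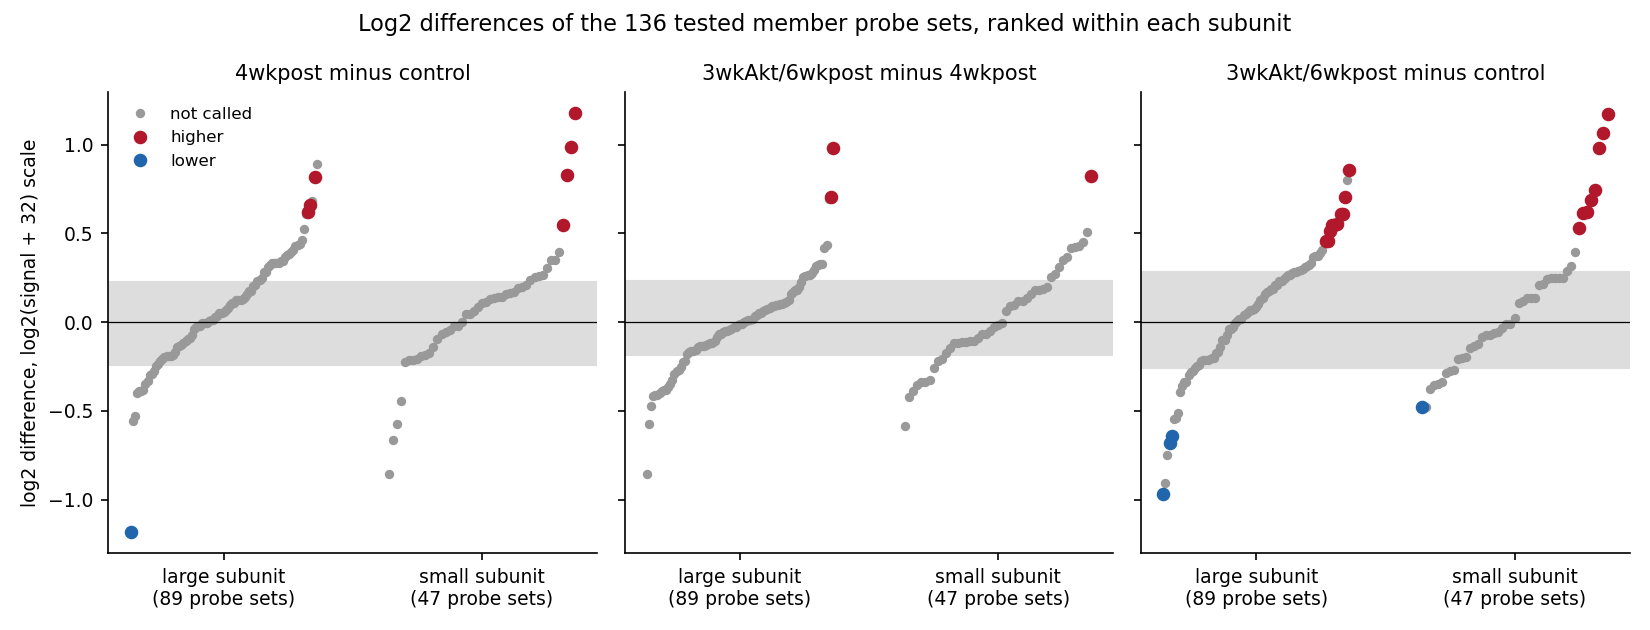
Log2 difference (y axis) of each of the 136 tested member probe sets in the 3 comparisons, ranked within the large (89) and small (47) subunit along the x axis; red and blue dots were called higher and lower at adjusted p under 0.05, and the grey band spans the quartiles of all tested probe sets. Most members lie within the band, and the called rows are 8, 3 and 22 in the 3 panels.

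The 51 genes never called were 32 of the large and 19 of the small subunit. In the large subunit they were Mrpl1, Mrpl2, Mrpl4, Mrpl12 to Mrpl17, Mrpl19, Mrpl21, Mrpl22, Mrpl24, Mrpl28, Mrpl32 to Mrpl39, Mrpl41, Mrpl42, Mrpl48, Mrpl50 to Mrpl52, Mrpl54, Mrpl55, Mrpl57 and Mrpl58. Their 60 rows ranged between -0.53 and 0.61 in 4wkpost against control hearts, between -0.85 and 0.44 in 3wkAkt/6wkpost against 4wkpost hearts, and between -0.91 and 0.80 in 3wkAkt/6wkpost against control hearts. In the small subunit they were Mrps5, Mrps6, Mrps9, Mrps14 to Mrps17, Mrps18b, Mrps18c, Mrps21, Mrps25 to Mrps28, Mrps30, Mrps31 and Mrps34 to Mrps36. Their 33 rows ranged between -0.85 and 0.35, between -0.42 and 0.51 and between -0.48 and 0.39 in the same order of comparisons.

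Among these, Mrps34 had 2789.8, 2708 and 2582 in 3wkAkt/6wkpost hearts, against 3713, 3201 and 3324 in control hearts, a difference of -0.34 (limma adjusted p = 0.0702) with no overlap. Mrps16 was at -0.28 with 2421, 2536 and 2146 in 3wkAkt/6wkpost hearts, against 3066, 2669.5 and 2876.5 in control hearts, and Mrps36 at -0.38 with hearts that overlapped. Mrpl41, which has also been described as a regulator of cell death, was at -0.03 and 0.06 on its tested rows. Mrpl32, whose maturation in the matrix is a step in assembling the ribosome, varied widely within groups, with 802, 744 and 836 in control hearts, 1833, 1174 and 709 in 4wkpost hearts, and 903, 1468 and 2078 in 3wkAkt/6wkpost hearts. The 24 rows below the signal filter were 18 on 430A and 6 on 430B; just above and below the filter stood Mrpl17 1450867_at with a mean signal of 142.2 and Mrpl33 1425843_at with 119.3 on 430A, and Mrps21 1459677_at with 67 and Mrps10 1458999_at with 34.61 on 430B.

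Across the 136 rows the order of the 3 group means took every form. In 34 rows it was control lowest and 3wkAkt/6wkpost highest with 4wkpost between, in 30 control lowest and 4wkpost highest, and in 24 the reverse of the first order, with 3wkAkt/6wkpost lowest and control highest. In 14 rows 4wkpost was lowest and 3wkAkt/6wkpost highest, as in Mrpl46, and in 17 rows each the order was 4wkpost lowest with control highest, as in Mrpl20, or 3wkAkt/6wkpost lowest with 4wkpost highest. These orders come from means alone, and most rest on differences within the spread between hearts.

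Rows of 1 gene often disagreed. Of the 76 genes 36 had more than 1 tested row, up to 5, and their rows had differing signs in 24 genes in 4wkpost against control hearts, in 20 in 3wkAkt/6wkpost against 4wkpost hearts and in 20 in 3wkAkt/6wkpost against control hearts. The median spread between the highest and lowest row of a gene was 0.36, 0.29 and 0.30 on the log2 scale in the same order. Of the 25 genes with a call, 11 had other tested rows, and in none of them was every row called in any comparison. Of the tested member rows 23 carried the suffix _x_at or _s_at, which Affymetrix gives to probe sets that can bind more than 1 transcript, among them the called rows of Mrpl11, Mrps12, Mrps24 and Mrpl9 1437749_s_at; signal of related transcripts may be mixed in these.

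**Figure D3:**
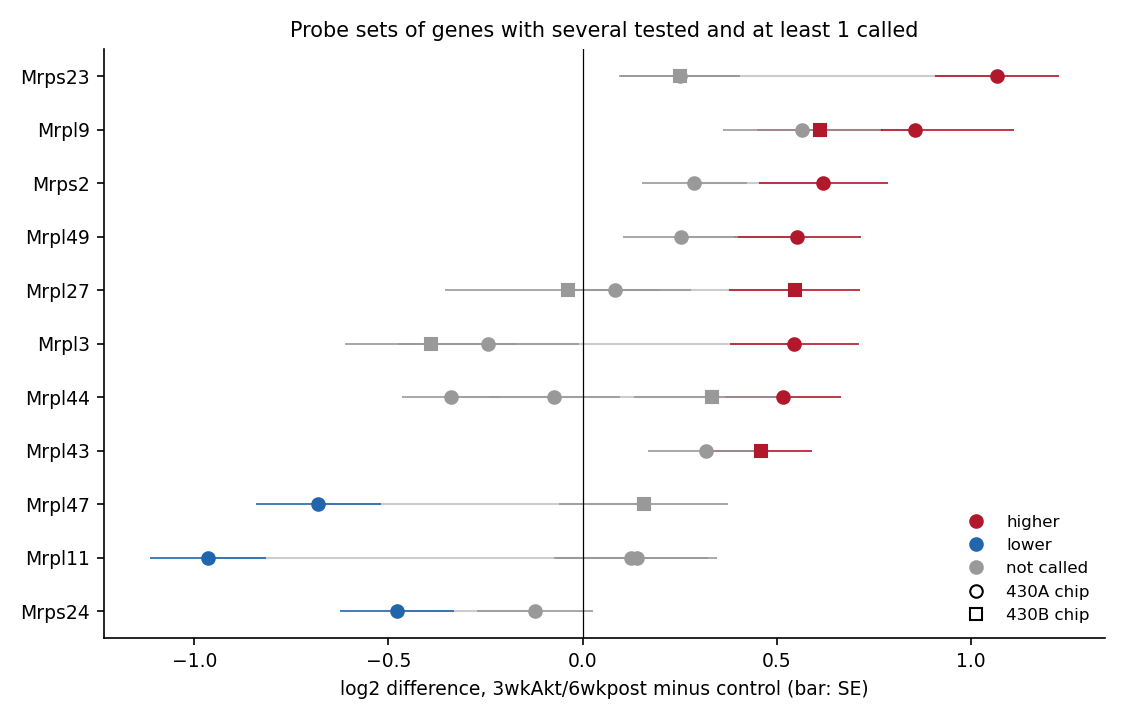
Log2 difference of 3wkAkt/6wkpost minus control hearts (x axis, bars SE) for each tested probe set of the 11 genes (y axis) with several tested and at least 1 called; circles are chip 430A, squares chip 430B, and colours the calls. In Mrpl11, Mrpl47, Mrpl44, Mrpl27 and Mrpl3 the rows of a gene lie on both sides of 0.

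Several members share a start region with a neighbour on the opposite strand. With starts within 1000 bases, 23 of the 67 genes with an entry (34.3%) had such a protein-coding neighbour, against 1483 of 17492 genes (8.48%). The median distance between the starts was 141 bases, and the nearest pair was Mrpl21 and Ighmbp2 at 32 bases. For 17 member genes the neighbour was itself tested, 2 of them being each other's neighbour, Mrps11 and Mrpl46.

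These 2 rose together in 3wkAkt/6wkpost against 4wkpost hearts, by 0.82 and 0.71. Against control hearts they parted: in 4wkpost hearts Mrps11 was at 0.35 and Mrpl46 at -0.39, neither called, and in 3wkAkt/6wkpost hearts Mrps11 rose by 1.17 while Mrpl46 was at 0.32 and not called. Mrps12 starts 147 bases from Sars2, the mitochondrial seryl-tRNA synthetase; in 3wkAkt/6wkpost against control hearts Mrps12 rose by 0.69 and Sars2 was at 0.29 and not called. Mrpl32 starts 205 bases from Psma2, a proteasome subunit, which rose by 0.67 in the same comparison while Mrpl32 at 0.80 did not pass the threshold.

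Mrpl49, by 1 of its rows, and Fau were the pair with calls in opposite directions. The other Mrpl49 row was at 0.25 and not called. In the pairs named after them only 1 gene was called in the comparison given. Mrpl49 and Fau, 192 bases apart, differed by 0.55 (1423219_a_at, called higher) and -0.61 (called lower) in 3wkAkt/6wkpost against control hearts; Fau encodes a protein fused to a cytosolic ribosomal protein. Twnk, the mitochondrial DNA helicase, starts 116 bases from Mrpl43 and fell by 0.57 in 3wkAkt/6wkpost against 4wkpost hearts, where the Mrpl43 rows were at 0.03 and 0.05. Mrpl40 rose by 0.61 in 3wkAkt/6wkpost against control hearts with Hira, 113 bases away, at -0.19, and Mrps7 rose by 0.53 with Gga3 at -0.12. The neighbours of Mrpl18 and Mrpl47, Tcp1 and Ndufb5, were not called in any of the 3 comparisons.

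**Figure D4:**
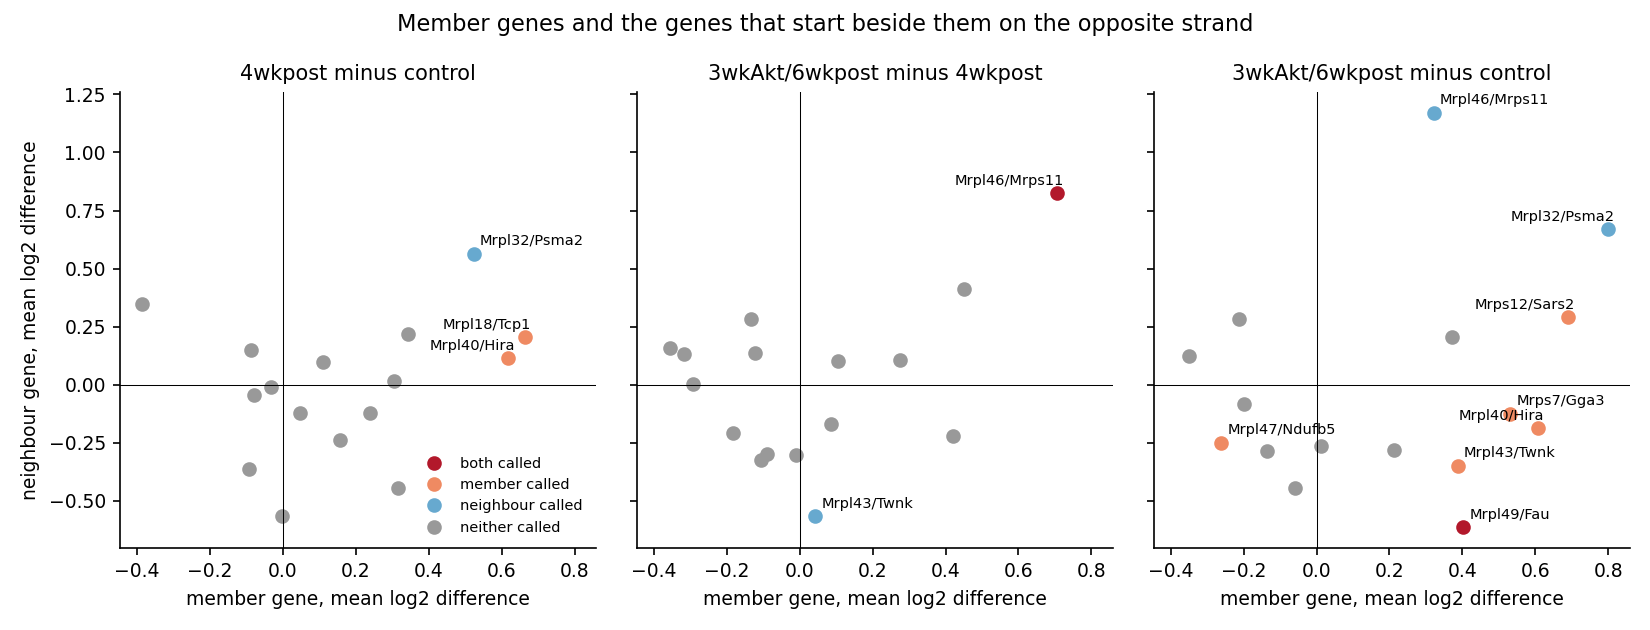
Mean log2 difference over the tested rows of a member gene (x axis) and of the neighbour that starts beside it on the opposite strand (y axis) for 16 pairs in the 3 comparisons; colours show which of the pair was called, and pairs with a call are named. Mrpl46 and Mrps11 are both called higher in the middle panel, and Mrpl49 and Fau are called in opposite directions in the right panel.

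Beside the members, the genes that serve the same ribosome were described by 6 lists with 144 tested rows of 87 genes. In 4wkpost against control hearts 3 of these rows rose, in 3wkAkt/6wkpost against 4wkpost hearts 2 rose and 8 fell, and in 3wkAkt/6wkpost against control hearts 8 rose and 10 fell. In the same order these were 2.083% higher and 0% lower, 1.389% and 5.556%, and 5.556% and 6.944%. Over all tested probe sets the shares were 3.59% and 2%, 1.41% and 1.89%, and 8.25% and 6.77%. The medians of the lists were 0.05, -0.07 and 0.00. Ribosomal proteins that lack an Mrp symbol, such as Dap3, or the membrane insertase Oxa1l had 8 rows of 5 genes and no call, with Chchd1 nearest at 0.34 (limma adjusted p = 0.135 in 4wkpost against control hearts).

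Of 26 tested genes for assembly of the ribosome and modification of its RNA, Mtg1, a GTPase of large subunit assembly, had 1606.5, 1424 and 1679 in control hearts, 1097, 1238 and 1040.3 in 4wkpost hearts, and 735.5, 791 and 618 in 3wkAkt/6wkpost hearts. No groups overlapped, and Mtg1 fell by 0.63 in 3wkAkt/6wkpost against 4wkpost hearts (limma adjusted p = 0.031) and by 1.10 against control hearts (limma adjusted p = 0.000928). Nsun4, an RNA methyltransferase that joins the subunits with Mterf4, rose on 1424839_a_at by 0.70 and 0.82 in the same comparisons and on 1429110_a_at by 1.27 against control hearts. Against control hearts in the 3wkAkt/6wkpost group Trmt2b rose by 0.71 and the protease subunit Spg7 fell by 0.79; Fastkd2 rose by 0.69 in 4wkpost against control hearts.

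Of 11 tested translation factors, the factor Gfm2, which splits ribosomes for reuse, rose on 1426591_at by 0.76 in 3wkAkt/6wkpost against 4wkpost hearts and on 1426590_at by 0.59 against control hearts. The initiation factor Mtif3 rose by 0.69 and Mtres1 fell by 0.64 in 3wkAkt/6wkpost against control hearts. Of 20 tested aminoacyl-tRNA synthetase genes and their partners, Cars2 rose by 0.72 in 4wkpost and by 0.65 in 3wkAkt/6wkpost hearts against control, Gars rose by 0.55 and Vars2 fell by 0.85 in 3wkAkt/6wkpost against control hearts. In 3wkAkt/6wkpost against 4wkpost hearts Wars2 came nearest to a call, at 0.67 (limma adjusted p = 0.0706).

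Of 14 genes for transcription and stability of mitochondrial RNA, Lrpprc, which keeps mitochondrial messenger RNAs stable, fell by 0.60 in 3wkAkt/6wkpost against 4wkpost hearts and by 0.63 against control hearts. Ssbp1, the single-stranded DNA binding protein, rose by 0.58 in 4wkpost against control hearts, and Tfam rose on 1456215_at by 0.57 in 3wkAkt/6wkpost against control hearts. Of the 11 tested nuclear regulators, Ppargc1a, the coactivator PGC-1α, had 104, 104 and 122 on 1434100_x_at in 3wkAkt/6wkpost hearts, against 292, 400.4 and 551.5 in 4wkpost hearts. No hearts overlapped; this row fell by 1.61 against 4wkpost hearts (limma adjusted p = 0.00306) and by 1.37 against control hearts, and 3 of the 5 rows of the gene fell in both comparisons. Ppara fell on 2 rows in each of the same comparisons, while Nrf1, Gabpa, Esrra and Yy1 had no call in the 3 comparisons.

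Set beside other families of the same hearts, the members stood near the bulk of all probe sets. Complex I, the first enzyme of the respiratory chain, whose mitochondrially encoded subunits this ribosome makes, had medians of -0.22, -0.11 and -0.29 over 70 rows of nuclear-encoded subunits in 4wkpost against control, 3wkAkt/6wkpost against 4wkpost and 3wkAkt/6wkpost against control hearts. Of these rows 1 rose and 9 fell in the first, 1 fell in the second and 1 rose and 23 fell in the last comparison. Cytosolic ribosomal proteins, 85 rows, had medians of -0.06, -0.05 and -0.15, with 2 risen and 5 fallen, 1 risen, and 3 risen and 10 fallen. The member medians of 0.07, -0.01 and 0.08 were above those of both families in each comparison; no test of the difference between families was made.

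**Figure D5:**
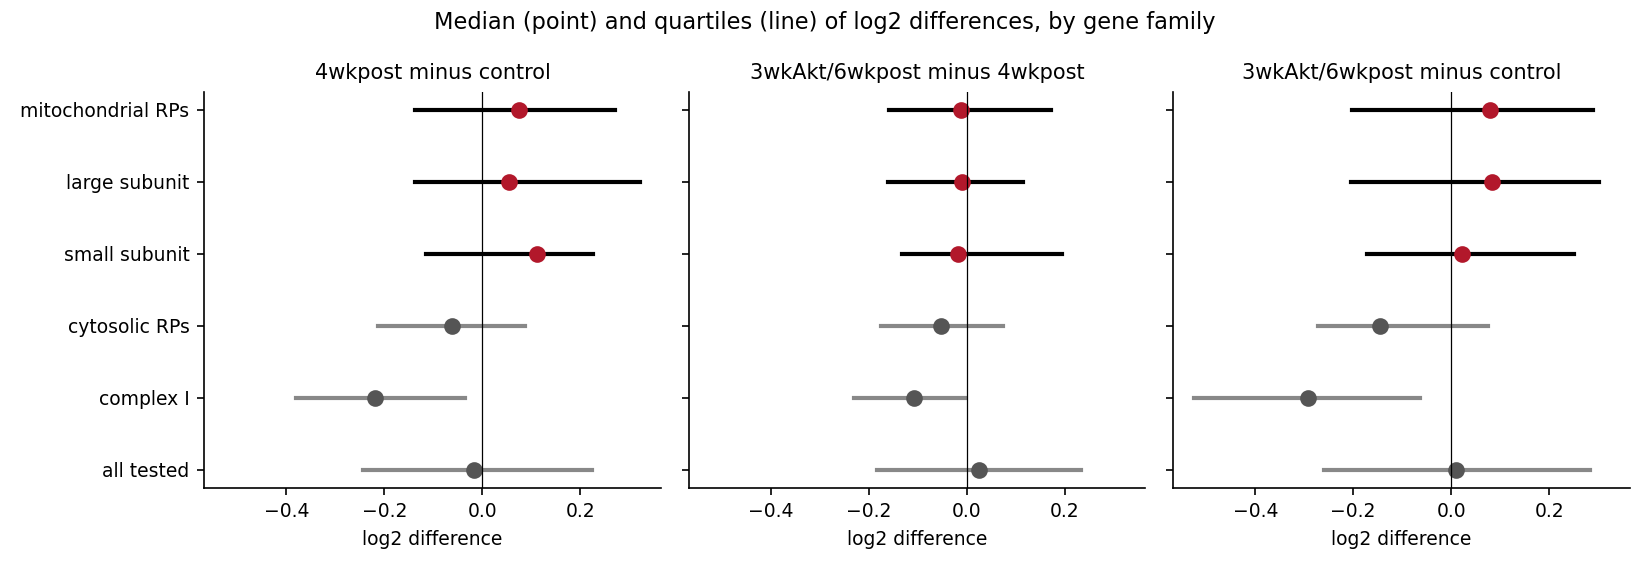
Median (dot) and quartiles (line) of log2 differences (x axis) in the 3 comparisons for the mitochondrial ribosomal proteins (RPs), their subunits, cytosolic ribosomal proteins, complex I subunits and all tested probe sets (y axis). The members' medians lie between -0.02 and 0.11, and those of complex I between -0.29 and -0.11.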

How the data were processed

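Per the labels' protocols, total RNA was isolated with the Ultraspec-II system, labelled with biotin and hybridized to 430A and 430B chips; per the submitters' processing notes the values were made with MAS5, whose version and settings are not given in the sources used here. The authors deposited 1 linear MAS5 intensity per probe set and array. The authors had scaled each chip to 1 level, with a mean trimmed by 2% at each end of about 500.2 on 430A and 122.51 on 430B, so that the pseudocount of 32 acts on 430B like 130.7 would on 430A. From the deposited intensity each array was brought to its chip's mean trimmed mean and log2(signal + 32) taken. Control probe sets (128), those with several symbols (936) and those with none (9160) were left out, and the brightest 60% of each chip kept.

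Limma 3.58.1 in R 4.3.3 fitted the 3 group means per chip (eBayes with trend, two-sided contrasts), with adjustment over the 21850 probe sets of both chips. The script was tested on simulated data. Same-numbered hearts did not deviate together (r of -0.1968 to 0.1179), so the main model has no replicate block. Alternatives covered scaling, pseudocount, filter, probe set choice, model, adjustment and each heart left out. Precision is limited by having 3 arrays of a chip per group. Named in each comparison are all called members, the 8 largest rises and 8 largest falls with hearts apart, other rows of those genes, and 9 genes fixed by name; of each pathway list, the called genes or the one with the smallest p. Psma2, Fau, the rows just beside the filter and the other neighbours were named after their values were seen, as were Nrf1, Esrra, Gabpa and Yy1. Members, lists and motifs were chosen with earlier results of these data known, as were the pairs of neighbours. Symbols come from the platform annotation, and promoters and starts from RefSeq (GRCm38.p6); 9 member genes had no promoter entry.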

Additional observations from a re-analysis of the deposited data

How the results depend on the processing

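No called direction reversed among the named members under the 16 alternative settings or the 9 hearts left out in turn. The counts of calls moved. In 4wkpost against control hearts, 8 called rows became 5 with 1 probe set per gene (76 tested, hence fewer rows), 5 with the replicate block, and 5 with 4wkpost replicates 1 and 3 averaged, and 1 to 11 with each heart left out; the median of 0.07 was 0.17 with median scaling and 0.0436 to 0.1033 without single hearts. In 3wkAkt/6wkpost against 4wkpost hearts, 3 called rows became 7 with median scaling (3 higher, 4 lower), 5 with 40% of probe sets kept and 6 with adjustment within each chip, stayed 3 with the replicate block, and were 1 to 3 with each heart left out; the median of -0.01 was -0.12 with median scaling and -0.0407 to 0.0284 without single hearts. In 3wkAkt/6wkpost against control hearts, 22 called rows became 14 with no filter on low signals (more rows tested) and 13 with 1 probe set per gene. They became 13 with the mean of a gene's rows on 1 chip, which was 430A where it had rows there. With the replicate block they were 12, and with each heart left out 9 to 27. The median of 0.08 was 0.0565 to 0.1474 without single hearts. Median scaling multiplies all signals of an array by 1 factor, so that all its probe sets shift the same way, members or not. The shift of the member medians under it is therefore not particular to the members. Shares of all tested probe sets under the other settings are not given beside these counts. The cause was not tested where none is named. Quantile scaling, both other pseudocounts, kept unnamed probe sets, the atrial marker score as covariate and 430B put on the scale of 430A, the last chosen after seeing the data, kept each count within 1.5 times. Where the replicate block is named, the hearts share only a number, and calls lost under it are not weaker effects. Probe sets near background on 430B are limited by the pseudocount.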
